A study of Mus musculus with 36 samples.

Results

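The TOX family of DNA-binding proteins is encoded in the mouse by 4 genes, Tox, Tox2, Tox3 and Tox4. They were picked by symbol from the 56748 genes measured and followed through 35 of the 36 RNA-seq libraries, in 12 groups. All groups held CD4+ T cells of mice of mixed 129/Sv and C57BL/6 background, 6 to 12 weeks old, and each mutant was set against littermates of the same sex. In the HP1a line, Cbx5, which encodes the heterochromatin protein HP1α, had been deleted in the germ line with a CMV-driven Cre (HP1a KO), and HP1a WT cells carried both intact copies. In the HP1g line, Cbx3, which encodes HP1γ, was flanked by loxP sites in both genotypes and deleted in T cells by Cd4-cre in HP1g KO, whereas HP1g WT cells had no Cre. Naive cells were taken from the spleen by negative selection (CD62L+, CD44 low). For the other groups, naive cells of these genotypes were injected into lethally irradiated B6 hosts reconstituted with B6 and semi-allogeneic B6D2F1 bone marrow, and were sorted after 3 weeks as Thy1.1-negative CD4+ cells with the Vβ6 T cell receptor chain, which recognises a superantigen of the allogeneic donor. Tconv came from hosts that received these cells alone, and Tconv with Treg from hosts that had also been given wild-type Treg expanded ex vivo, whose Thy1.1 mark removed them from the sort. Each group held 3 libraries, apart from HP1g KO Tconv with Treg, which held 2 after a library of poor read quality had been left out. The labels do not say whether libraries came from separate hosts, so the spread between them may be partly technical.

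TOX proteins carry a single HMG box, a domain that binds and bends DNA. TOX was first described in thymocytes, where it is needed for CD4+ lineage development, and calcineurin and NFAT, which act downstream of the T cell receptor, raise its transcription in chronically stimulated T cells, where it sustains inhibitory receptors such as PD-1 and works with the HBO1 acetyltransferase complex. TOX2 is linked to the follicular helper programme and is also found in exhausted T cells, TOX3 is best known from epithelial and neural tissue, and TOX4 is a widely expressed partner of the PNUTS, WDR82 and PP1 phosphatase complex.

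In GRCm39, Tox (ENSMUSG00000041272) spans chr4:6686353-6991644 on the minus strand and Tox2 (ENSMUSG00000074607) chr2:163045021-163166191 on the plus strand. Tox3 (ENSMUSG00000043668) lies at chr8:90972261-91075014 on the minus strand and Tox4 (ENSMUSG00000016831) at chr14:52516587-52533858 on the plus strand. All 4 are protein-coding, with 7750, 3648, 4806 and 7758 bp of merged exon in the GENCODE annotation. The kit did not mark strand, so reads from exon sequence shared by genes on opposite strands cannot be assigned by strand. Tox4 shared 2308 bp of exon with Mettl3 and 350 bp with Rab2b, and Tox shared 403 bp with the long non-coding RNA Gm11802, which did not exceed 1.96 CPM (CPM, the read count over the library size after scaling by the trimmed mean of M-values, TMM) in any of the 35 libraries. RefSeq promoter windows (250 bases before to 50 after a start, GRCm38.p6) were found for 3 of the 4 genes. Tox2, the member with the widest range of levels in these cells, had 5 windows in 2 clusters, and a window from each cluster is given here because they differ in base composition. The first, at chr2:163202877-163203176 on the plus strand, was 77% G or C, and the second, at chr2:163225203-163225502 on the same strand, was 53.3% G or C.
Tox2 upstream start: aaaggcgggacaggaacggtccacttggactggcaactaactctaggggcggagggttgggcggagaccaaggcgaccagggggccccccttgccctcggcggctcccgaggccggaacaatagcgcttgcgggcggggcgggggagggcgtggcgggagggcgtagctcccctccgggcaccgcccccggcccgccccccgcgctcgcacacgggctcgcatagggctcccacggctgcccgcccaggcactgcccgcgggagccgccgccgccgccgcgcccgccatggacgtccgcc
Tox2 downstream start: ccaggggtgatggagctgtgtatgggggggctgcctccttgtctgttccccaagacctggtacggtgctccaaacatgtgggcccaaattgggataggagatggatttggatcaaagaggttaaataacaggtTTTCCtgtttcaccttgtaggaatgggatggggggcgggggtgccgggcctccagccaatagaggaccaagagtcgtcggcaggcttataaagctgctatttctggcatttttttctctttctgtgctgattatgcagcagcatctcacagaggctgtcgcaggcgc
Capitals mark a match to the NFAT core GGAAA on the minus strand. This core was searched on both strands and was found in 0 places in the first window and 1 in the second, and it occurs in 61.3% of 32851 mouse promoter windows of the same length. The AP-1 motif TGANTCA had 0 matches in either Tox2 window and occurs in 7.81% of all windows. Counts here are per gene and do not separate the starts.

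Library totals ranged from 37029500 to 63042200 estimated counts (median 46844700), so that 3 counts, taken as the detection floor, corresponded to 0.0476 to 0.081 CPM. Cbx5 was lower in HP1a KO than in HP1a WT libraries of the same condition without overlap (9.2 to 19.7 against 18.5 to 61.8 CPM over the 3 conditions), and Cbx3 was likewise lower in HP1g KO than in HP1g WT (60.5 to 80.8 against 79.1 to 199 CPM), although transcripts of both genes remained detectable. The 6 CD4 T cell markers were expressed in all groups and summed to 4162 to 6449.5 CPM. The median Pearson r of a library's log2 CPM with its replicates was 0.940 to 0.995. The lowest belonged to replicate 3 of HP1a WT Tconv with Treg. Tox and Tox2 differences within the HP1a line that rest on this library are given with and without it, whereas levels and list genes are given with it. In bulk libraries, fewer cells of a type and less RNA per cell cannot be told apart.

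In naive cells Tox was expressed evenly and Tox2 was close to the detection floor. Naive Tox levels were 92.3, 93.8 and 87.8 CPM in HP1a WT, 92.6, 90.5 and 92.8 in HP1a KO, 95.6, 89.9 and 102 in HP1g WT, and 81.0, 79.4 and 91.4 in HP1g KO. The 4 groups of naive cells overlapped with each neighbour in the order of their means. Tox2 ranged from 0.12 to 0.746 CPM over the 12 naive libraries, with 6 to 30 counts each. Tox4 ranged from 128 to 207 CPM and was higher in HP1a KO than in HP1a WT naive cells without overlap, as were 3.16% of all genes. Tox3 had 34 counts in all 12 naive libraries together and at least 1 count in 9 of them. Between KO and WT naive cells, edgeR (quasi-likelihood test with Benjamini-Hochberg adjustment, where a call needs both an adjusted p under 0.05 and a log2 fold change beyond 1 in either direction) called 0 of the 2 members tested in the HP1a line, beside 0% of the 15549 genes tested there, and 0 of 3 in the HP1g line, beside 0.00669% of 14939 genes. No member had an unadjusted p under 0.05, and DESeq2 called 0 members, beside 0.0478% and 0.208% of genes. With the replicate number as a block, which the naive HP1a libraries follow, 12 genes were called in that line, with 0 members among them. The log2 difference (KO minus WT) of Tox was 0.01 ± 0.07 (SE) in the HP1a line and -0.16 ± 0.15 in the HP1g line.

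**Figure D1:**
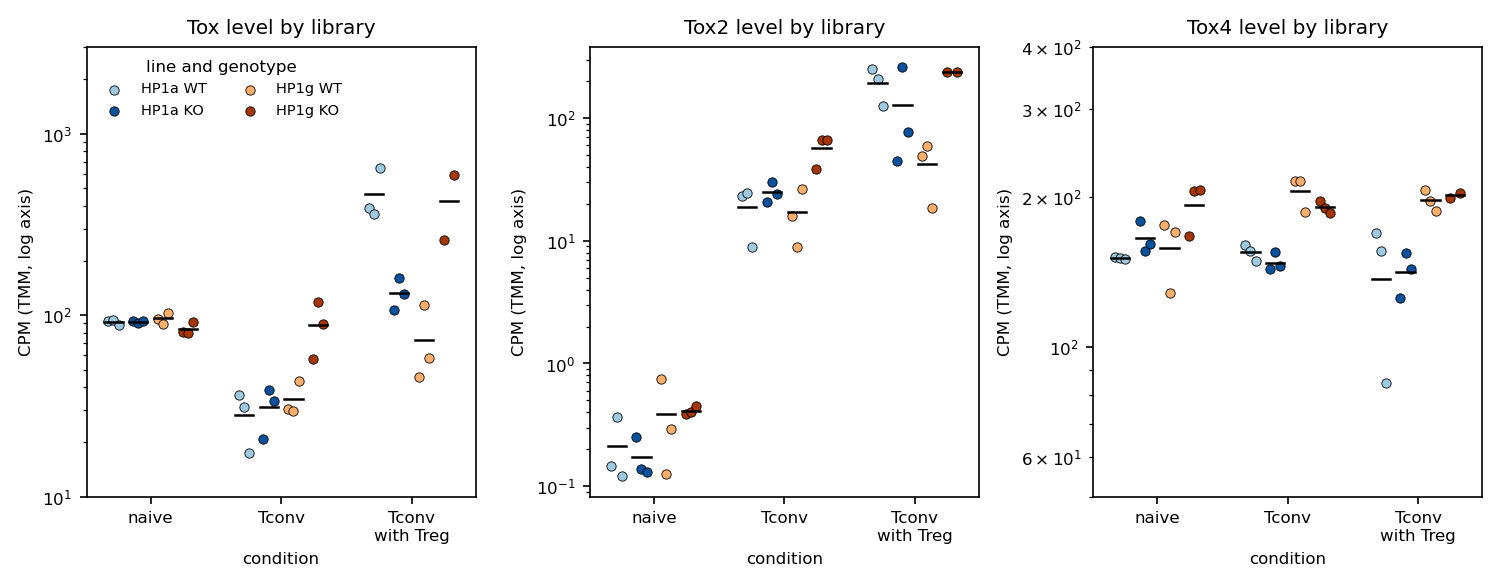
Level of Tox, Tox2 and Tox4 in each of the 35 libraries (y axis, TMM-scaled CPM on a log axis, with a separate range per panel) by condition (x axis), line and genotype (colour). Points are libraries and black bars are group means of 3 libraries (2 in HP1g KO Tconv with Treg). Tox2 is under 1 CPM in naive cells and 8.84 to 259.7 CPM in recovered cells. Tox is lower in Tconv without Treg than in naive cells in 3 of the 4 line and genotype combinations. Tox4 keeps a narrow range apart from a single HP1a WT library at 84.7 CPM.

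Against naive cells, Tconv recovered without Treg had less Tox and more Tox2 in 3 of the 4 line and genotype combinations. Tox was 36.3, 31.0 and 17.4 CPM in HP1a WT Tconv, 20.9, 38.7 and 33.8 in HP1a KO Tconv, and 30.5, 29.7 and 43.6 in HP1g WT Tconv, each below every naive library of its own line and genotype. It fell by 1.69 ± 0.24 (SE), 1.55 ± 0.21 and 1.47 ± 0.19 on the log2 scale against naive cells (edgeR adjusted p 0.000947, 0.00114 and 0.000936). HP1g KO Tconv stood apart, with 57.3, 118 and 89.6 CPM, a range that overlapped the naive one, and a log2 fold change of 0.10 ± 0.25 (edgeR adjusted p 0.785). Groups that did not overlap, with Tconv lower, made up 28%, 25.9% and 24.6% of all genes tested in the 3 comparisons in which Tox was called.

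Tox2 rose in all 4 combinations and its groups did not overlap. It reached 23.3, 24.4 and 8.86 CPM in HP1a WT Tconv, 20.8, 30.4 and 24.0 in HP1a KO Tconv, 15.9, 8.84 and 26.5 in HP1g WT Tconv, and 38.8, 66.9 and 65.9 in HP1g KO Tconv. The log2 fold changes were 6.49 ± 0.58 (SE), 7.18 ± 0.31, 5.48 ± 0.68 and 7.13 ± 0.29 (edgeR adjusted p 7.08e-05, 7.62e-06, 0.000707 and 1e-06). They start from 6 to 30 counts per naive library, so their size is less certain than their direction. Over the family, 2 of the 3 members tested were called in HP1a WT, HP1a KO and HP1g WT, and 1 of 3 in HP1g KO, beside 23.1%, 19.7%, 23.5% and 23.1% of all genes tested. DESeq2 called the same members, beside 20.5%, 18.7%, 22.1% and 20.2%. Genes with Tconv higher and no overlap made up 29.7%, 29%, 27.3% and 27.8%. Every one of these 7 calls of Tox and Tox2 was kept under each of the 6 alternative settings and with each library left out in turn. Among these settings, dropping the fold threshold only relaxes the rule and could not lose a call. The 8 myeloid markers summed to 5.59 to 5.87 CPM in HP1a WT Tconv, below the 8.14 to 11.3 CPM of naive cells, and to 11.0 to 133 CPM in HP1a KO Tconv, which overlapped the 10.7 to 11.8 CPM of naive cells. In HP1g WT Tconv they reached 24.0 to 455 CPM against 5.08 to 11.5, and in HP1g KO Tconv 33.0 to 118 CPM against 8.43 to 11.3. edgeR called 4, 5 and 6 of the myeloid markers higher in HP1a KO, HP1g WT and HP1g KO Tconv. The erythroid markers Hba-a1, Hbb-bs and Klf1 summed to 47.0 to 3069.6 CPM in HP1g WT and 96.5 to 2151 CPM in HP1g KO Tconv, above the 5.89 to 30.5 and 39.4 to 47.6 CPM of naive cells. In the HP1a line these sums were 22.2 to 58.7 CPM in WT naive cells and 1.09 to 2.42 CPM in WT Tconv, and overlapped in the KO. The part of these markers in the Tox and Tox2 differences was not tested.

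The difference between HP1g genotypes in how Tox responded to transfer was tested as an interaction, added after the values had been seen. It was 1.59 ± 0.33 (SE) on the log2 scale for Tox (KO response minus WT response) and missed the threshold (edgeR adjusted p 0.199), while DESeq2 called it (adjusted p 0.00581). For Tox2 it was 1.67 ± 0.74 (edgeR adjusted p 0.63). edgeR called 0 of 3 members, beside 0.0235% of all genes, and DESeq2 1 of 3, beside 0.601%. In the HP1a line the same interaction was 0.13 ± 0.35 for Tox and 0.68 ± 0.71 for Tox2 (edgeR adjusted p 1 for both), with 0 members called by either tool or at an unadjusted p under 0.05, beside 0.00587% of genes for edgeR and 0.349% for DESeq2.

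In the presence of Treg, Tox and Tox2 rose in HP1a WT cells and Tox rose in HP1a KO cells, whereas edgeR called neither gene in the HP1g line. In HP1a WT cells the Tox level was 389, 359 and 645 CPM with Treg, against 36.3, 31.0 and 17.4 without, and the Tox2 level was 249.9, 209 and 125 CPM against 23.3, 24.4 and 8.86. Neither gene overlapped between the 2 groups. Tox rose by 4.08 ± 0.37 (SE) and Tox2 by 3.402 ± 0.44 on the log2 scale (edgeR adjusted p 0.0017 and 0.00588). With 2 of the 3 members tested called, beside 5.96% of all genes by edgeR and 9.28% by DESeq2, both calls were kept under all 6 alternative settings and with each library left out. Dropping the fold threshold, which is among the 6, could not lose them. Without replicate 3 of HP1a WT Tconv with Treg, the library with the highest Tox and the lowest Tox2 of its group, the values were 3.75 ± 0.29 and 3.63 ± 0.41. Higher levels without overlap were found for 14.7% of all genes. The summed myeloid markers were 14.4 to 39.3 CPM with Treg and 5.59 to 5.87 CPM without, and their part in these differences was not tested.

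In HP1a KO cells, Tox was 107.3, 161 and 131 CPM with Treg and 20.9, 38.7 and 33.8 without. It rose by 2.11 ± 0.25 (SE) on the log2 scale (edgeR adjusted p 0.0292), which made it the 1 call among 3 members, beside 0.44% of all genes. The call was lost in 5 of the 6 fits with a library left out (edgeR adjusted p up to 0.169) and without the filter on low counts (0.0550), while the log2 fold change stayed between 1.90 and 2.29. Tox2 was 44.8, 259.7 and 76.9 CPM with Treg, and replicate 2, at 259.7 CPM, stood above all 3 HP1a WT libraries with Treg while the other two lay below them. Its log2 fold change of 2.36 ± 0.68 was not called by edgeR (adjusted p 0.194) and was called by DESeq2 (adjusted p 0.0403), which called 2 of 3 members, beside 2.67% of all genes. Neither gene overlapped between HP1a KO cells with and without Treg, as was true with Treg higher for 9.72% of all genes. Here the summed myeloid markers were 214 to 561 CPM with Treg and 11.0 to 133 CPM without, and their part was likewise not tested.

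In the HP1g line, WT cells with Treg had Tox at 45.6, 114 and 58.3 CPM, without overlap above the 29.7 to 43.6 CPM of cells without Treg (as 6.6% of all genes were) but far below HP1a WT with Treg. The log2 fold change was 1.07 ± 0.38 (SE; edgeR adjusted p 0.694). Tox2, at 48.8, 59.3 and 18.7 CPM, overlapped the cells without Treg and differed by 1.31 ± 0.56 (edgeR adjusted p 0.734). edgeR called 0 of 3 members, beside 0.0126% of all genes, or 0% with the replicate number as a block, which these libraries follow. DESeq2 also called 0 members, beside 0.332%, and 1 member, Tox, had an unadjusted p under 0.05. In HP1g KO cells Tox was 258 and 594 CPM with Treg, against 57.3 to 118 without, and Tox2 was 237 and 236 CPM, against 38.8 to 66.9. Their differences of 2.26 ± 0.44 and 2.04 ± 0.26 on the log2 scale were not called by edgeR (adjusted p 0.503 and 0.314), which called 0% of 16991 genes (1294 at an unadjusted p under 0.05, Tox and Tox2 among them). DESeq2 called both (adjusted p 0.000134 and 4.43e-08), beside 1.6% of all genes. Higher values without overlap were found for 13.7% of genes. Summed myeloid markers overlapped between cells with and without Treg in both HP1g genotypes. The 7 B cell markers summed to 23.8 to 25.6 CPM in HP1g KO cells with Treg and 6.02 to 13.7 CPM without, with no overlap. edgeR called 0 of the 6 tested and DESeq2 called 1 higher, beside 1.09% of all genes. The part of these markers in the differences was not tested.

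The Treg response of wild-type cells differed between the lines for Tox. It was lower in HP1g WT than in HP1a WT in log2 terms (HP1g minus HP1a, -3.002 ± 0.53, SE, edgeR adjusted p 0.0173), and 1 of 3 members was called, beside 1.56% of all genes. For Tox2 the difference of -2.08 ± 0.71 was not called (edgeR adjusted p 0.174), and DESeq2 called both genes (adjusted p 1.76e-06 and 0.0364), beside 4.54%. The Tox call was lost without replicate 3 of HP1a WT Tconv, replicate 3 of HP1g WT Tconv or replicate 2 of HP1g WT Tconv with Treg (adjusted p up to 0.0671), and the value stayed between -3.48 and -2.68 over the 12 fits with a library left out. The sources do not say whether the lines were handled together, and the methods speak of various ratios of Treg to injected cells without tying them to these libraries. For the HP1γ RNA-seq the paper states that wild-type cells were not effectively repressed at its ratio, which it does not name there. Line, any batch that follows it and Treg dose therefore cannot be told apart.

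**Figure D2:**
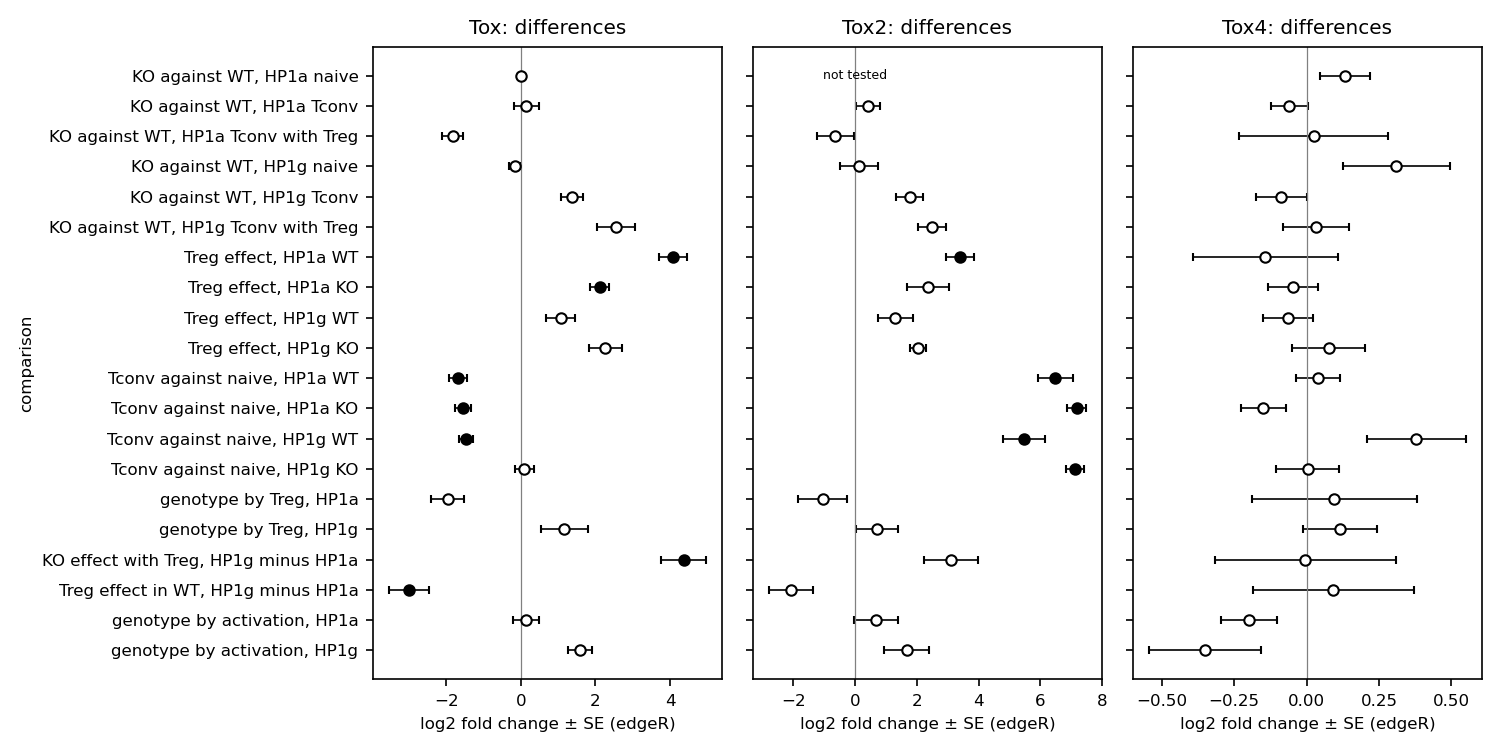
Log2 fold change and standard error (x axis, edgeR, a separate range per panel) of Tox, Tox2 and Tox4 in each of the 20 comparisons (y axis). Filled points were called by edgeR and open points were not. Tox lies left of 0 for the HP1a knock-out and right of 0 for the HP1g knock-out in Tconv with Treg, whereas all Tox4 points stay within 0.38 of 0.

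Loss of HP1α and loss of HP1γ went with opposite differences of Tox among cells recovered with Treg. In the HP1a line, the 3 KO libraries (107.3, 161 and 131 CPM) lay below the 3 WT libraries (389, 359 and 645 CPM). The log2 difference (KO minus WT) was -1.83 ± 0.28 (SE) and narrowly missed the threshold (edgeR adjusted p 0.0715). It was called by DESeq2 (adjusted p 1.85e-07) and, in edgeR, without replicate 3 of HP1a WT Tconv with Treg (-1.498 ± 0.17, adjusted p 0.0272), the library with the highest Tox level. Tox2 overlapped between the genotypes and differed by -0.64 ± 0.61 (edgeR adjusted p 0.715), or by -0.86 ± 0.67 without the same WT library (edgeR adjusted p 0.577). Over the 6 fits with a library left out the Tox2 value ran from -1.70, without HP1a KO replicate 2 (edgeR adjusted p 0.190), to -0.24, without HP1a KO replicate 1, and was called in 0. Thus edgeR called 0 of 3 members, with 1 at an unadjusted p under 0.05, beside 0.123% of all genes, and DESeq2 1 of 3, beside 3.84%. KO libraries were lower without overlap for 9.71% of all genes. Markers of other cells moved with this comparison, in that the 8 myeloid markers summed to 214 to 561 CPM in the KO and 14.4 to 39.3 CPM in the WT libraries, and Ltf and Chil3 among them were called higher. The 3 erythroid markers summed to 72.7 to 424 CPM in the KO and 1.60 to 28.7 CPM in the WT libraries, also without overlap. In the other direction, the 7 Treg markers summed to 558 to 739 CPM in the KO and 745 to 948 CPM in the WT libraries, without overlap. edgeR called 0 of these 7 and DESeq2 called 2 lower, beside 1.96% of all genes. The part of these markers in the difference of Tox was not tested.

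In the HP1g line, the order was reversed. The KO libraries with Treg (258 and 594 CPM Tox, 237 and 236 CPM Tox2) lay above all WT libraries with Treg (45.6 to 114 and 18.7 to 59.3 CPM). The log2 differences of 2.55 ± 0.50 (SE) for Tox and 2.48 ± 0.45 for Tox2 were not called by edgeR (adjusted p 0.194 and 0.188), which called 0% of 17177 genes, 2028 of which had an unadjusted p under 0.05, Tox and Tox2 included. DESeq2 called both (adjusted p 9.41e-06 and 2.92e-06), beside 3.56% of all genes. KO libraries were higher without overlap for 16% of genes. The direction was the same without Treg, where HP1g KO Tconv exceeded HP1g WT Tconv by 1.38 ± 0.30 for Tox and 1.76 ± 0.44 for Tox2, without overlap for either. edgeR again called 0 of 3 members (adjusted p 0.244 and 0.315, both with an unadjusted p under 0.05), beside 0.0437% of genes, and DESeq2 2 of 3 (adjusted p 0.000168 and 0.000187), beside 1.43%. Higher KO values without overlap made up 6.97% of all genes there. Summed myeloid markers overlapped between the HP1g genotypes, at 79.4 to 297 CPM in KO and 100.3 to 141 CPM in WT cells with Treg. The 7 B cell markers did not overlap there, at 23.8 to 25.6 CPM in KO and 4.05 to 15.5 CPM in WT cells, with 0 of the 6 tested called. Summed Treg markers overlapped, at 590 to 818 CPM in KO and 437 to 672 CPM in WT cells. edgeR called 0 of the 7 Treg markers and DESeq2 called 3 higher, beside 2.57% of all genes. The part of these markers in the differences was not tested. With the left-out HP1g KO library put back, the Tox2 difference was 3.82 ± 0.99 between genotypes with Treg (edgeR adjusted p 0.644), 3.41 ± 0.93 between HP1g KO cells with and without Treg (0.751) and 2.04 ± 1.02 for the change of the Treg response with genotype (0.794).

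Without Treg, HP1a KO and HP1a WT Tconv overlapped for both genes, with log2 differences of 0.15 ± 0.34 (SE) for Tox and 0.42 ± 0.39 for Tox2 (edgeR adjusted p 0.918 and 0.789). No member was called by edgeR or DESeq2 and none had an unadjusted p under 0.05, beside 0.103% and 1.16% of all genes. The change of the Treg response with genotype for Tox in the HP1a line was -1.64 ± 0.42 without replicate 3 of HP1a WT Tconv with Treg (edgeR adjusted p 0.115). With that library it was -1.96 ± 0.45 (edgeR adjusted p 0.122, DESeq2 adjusted p 0.00199), with 0 of 3 members called by edgeR, 1 at an unadjusted p under 0.05, beside 0.139% of genes, and 1 of 3 by DESeq2, beside 1.85%. In the HP1g line it was 1.17 ± 0.63 for Tox and 0.71 ± 0.69 for Tox2 (edgeR adjusted p 1 for both), with 0 members called by either tool and 0 at an unadjusted edgeR p under 0.05, beside 0% and 0.0539% of genes.

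A direct test of the difference between the 2 knock-out effects in Tconv with Treg gave 4.37 ± 0.61 (SE) on the log2 scale for Tox (HP1g minus HP1a, edgeR adjusted p 0.0107). It was called with each of the 11 libraries left out in turn (adjusted p up to 0.0432) and missed the threshold with the left-out HP1g KO library put back (4.14 ± 0.72, adjusted p 0.053). Tox2 gave 3.11 ± 0.87 (edgeR adjusted p 0.0871), and DESeq2 called both genes (adjusted p 2.61e-10 and 0.00449). edgeR thus called 1 of 3 members, beside 2.72% of all genes, and DESeq2 2 of 3, beside 7.51%. Line, any batch that follows it and Treg dose cannot be told apart in this test. The comparisons of genotype, of Treg and their differences share libraries, and their values are therefore not independent of each other.

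Ordered by group mean, Tox was highest in HP1a WT Tconv with Treg (464 ± 157 CPM, SD, n = 3) and HP1g KO Tconv with Treg (426 ± 237, n = 2), which overlapped. HP1a KO Tconv with Treg followed at 133 ± 26.7 (n = 3), with no overlap with the groups next to it in the order. Its lowest library (107.3 CPM) nevertheless lay below the highest of HP1g KO Tconv (118 CPM) and of HP1g WT Tconv with Treg (114 CPM). Next came naive cells, HP1g KO Tconv and HP1g WT Tconv with Treg, each overlapping its neighbour, from 95.9 ± 6.25 down to 72.6 ± 36.4 (n = 3 each). The lowest 3 groups were HP1g WT, HP1a KO and HP1a WT Tconv, at 34.6 ± 7.81, 31.1 ± 9.22 and 28.2 ± 9.72, which overlapped. Tox2 was highest in HP1g KO Tconv with Treg (236 ± 0.333, n = 2), HP1a WT Tconv with Treg (195 ± 63.6) and HP1a KO Tconv with Treg (127 ± 116, n = 3). Each of the 8 recovered groups overlapped its neighbour in the order of Tox2 levels, down to HP1g WT Tconv at 17.1 ± 8.89, and a gap without overlap separated them from naive cells.

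The balance between Tox and Tox2 was compared per kilobase of merged exon, since the genes differ in length. The ratio of Tox2 to Tox levels per kilobase was 0.00291 to 0.0166 in the 12 naive libraries (median 0.00588), and 0.412 to 3.43 in the 23 recovered ones (median 1.29). Tox2 exceeded Tox in 18 of the 23, in 11 of 12 without Treg and in 7 of 11 with Treg. Over the 12 group means of log2(CPM + 1), Tox and Tox2 correlated at r = 0.397, and over the 8 recovered groups at r = 0.973, given as a description, since groups of a line share their source.

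**Figure D3:**
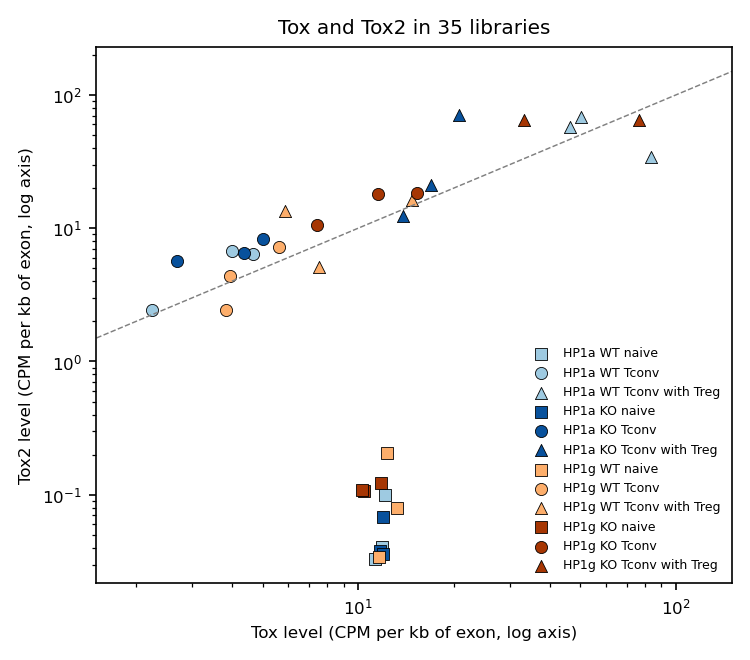
Tox (x axis) and Tox2 (y axis) in CPM per kilobase of merged exon, both on log axes, for each of the 35 libraries. Squares are naive cells, circles Tconv and triangles Tconv with Treg, colours give line and genotype, and the dashed line marks equal levels. Naive libraries form a column with Tox2 far below Tox (ratios 0.00291 to 0.0166), and recovered libraries lie along the dashed line (ratios 0.412 to 3.43).

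Tox3 was close to absent from the counts and Tox4 was called in no comparison. Tox3 had 36 counts over all 35 libraries, at most 9 in a library, and at least 1 count in 11. In the 23 recovered libraries it had 2 counts, in 2 libraries, so that each lay below the floor of 3 counts. It passed the filter on low counts in 0 of the 20 comparisons. Tox4 ranged from 84.7 to 215 CPM, and its group means differed by at most 1.505-fold, from 137 ± 45.5 (SD, n = 3) in HP1a WT Tconv with Treg to 206 ± 16.6 (n = 3) in HP1g WT Tconv. It was called in 0 of 20 comparisons by edgeR and by DESeq2, and had an unadjusted edgeR p under 0.05 in none. Its low extreme was replicate 3 of HP1a WT Tconv with Treg, at 84.7 CPM against 169 and 156 CPM in the other two libraries of that group, and every other library had at least 125 CPM. The HP1a recovered cells had lower Tox4 than the HP1g ones, 84.7 to 169 CPM against 185 to 215 CPM. This difference between lines was not tested, and the share of all genes that separate the lines in this way was not counted. Mettl3, which overlaps Tox4 on the other strand and encodes an RNA methyltransferase, stood at 30.3 to 52.3 CPM over the 35 libraries.

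Receptors that TOX is known to sustain rose with Treg in HP1a WT, as Tox did, but also rose on transfer, where Tox fell in 3 of 4 combinations. The list of 8 held Pdcd1 (PD-1), Lag3, Havcr2 (TIM-3), Tigit, Ctla4, Cd244a (2B4), Entpd1 (CD39) and Cd160. Against naive cells, 6, 7, 8 and 8 of the 8 were called higher in HP1a WT, HP1a KO, HP1g WT and HP1g KO Tconv, and 0 lower, beside 12.9%, 12.4%, 15% and 15.7% of all genes called higher. In response to Treg, 6 of the 8 rose in HP1a WT and 0 fell, with a median log2 fold change of 2.59 (0.03 over all genes, of which 3.54% were called higher), and 2 of 8, Pdcd1 and Lag3, rose in HP1a KO with a median of 0.73 (0.02 over all genes, of which 0.18% were called higher). In the HP1g line 0 of 8 were called by edgeR in either genotype, with medians of 0.17 in WT and 1.25 in KO, and DESeq2 called 0 and 2. Of all genes, edgeR called 0.00629% higher in HP1g WT and 0% in HP1g KO, and DESeq2 0.116% and 1.09%. Lag3, an inhibitory receptor for MHC class II, was 46.3, 54.7 and 67.4 CPM in HP1a WT with Treg and 6.30, 3.50 and 8.14 CPM in HP1a KO with Treg. It was lower in the KO (log2 difference -3.25 ± 0.34, SE, edgeR adjusted p 0.0328). Havcr2 was 42.4, 44.2 and 41.2 CPM in HP1a WT and 10.7, 6.66 and 12.6 in HP1a KO (-2.12 ± 0.26, edgeR adjusted p 0.0434), so that 2 of the 8 receptors fell in this comparison, with a median over the list of -1.41 (-0.01 over all genes, of which 0.08% were called lower). Pdcd1, at 539.6, 468 and 265 against 109, 148 and 98.8 CPM, was not called by edgeR (-1.86 ± 0.29, adjusted p 0.0752) but was by DESeq2 (adjusted p 3.51e-07), which called 5 of the 8 lower, beside 1.96% of all genes. In the HP1g KO with Treg the median of the list was 1.53, with 0 of 8 called by edgeR and 5 by DESeq2, beside 0% and 2.57% of all genes called higher. The difference of the knock-out effects between the lines was called by edgeR for 5 of the 8, Pdcd1, Lag3, Havcr2, Tigit and Ctla4, all with HP1g minus HP1a above 0, beside 1.78% of all genes called in that direction.

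**Figure D4:**
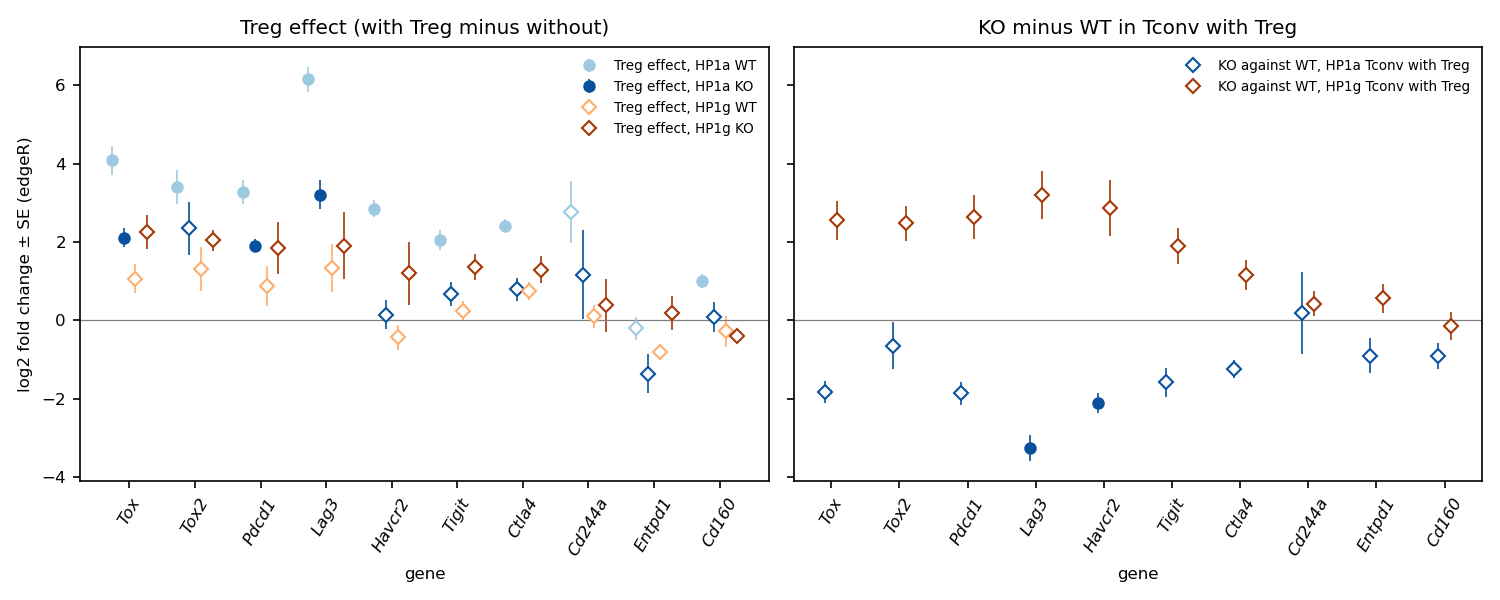
Log2 fold change and standard error (y axis, edgeR) of Tox, Tox2 and the 8 receptors (x axis) for the Treg effect in each line and genotype (left) and for KO minus WT in Tconv with Treg (right). Filled circles were called and open diamonds were not. In HP1a WT, Tox, Tox2 and 6 receptors were called higher with Treg, and on the right Pdcd1, Lag3, Havcr2, Tigit and Ctla4 lie below 0 in the HP1a line and above 0 in the HP1g line, as Tox does. The Tox2 points have the same signs, but its HP1a difference is small beside its error (-0.64 ± 0.61) and the HP1a genotypes overlap.

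The follicular helper list, Bcl6, Cxcr5, Tcf7, Il21, Icos, Ascl2 and Pou2af1, gave 5 of 7 called higher by edgeR with Treg in HP1a WT (median 2.57), beside 3.54% of all genes, namely Bcl6, Cxcr5, Il21, Ascl2 and Pou2af1, all 5 of which also served as the follicular helper markers. In HP1a KO 0 of the 6 tested were called by edgeR and 3 by DESeq2 (median 1.505), in HP1g WT 0 of 6 and 1 (median 0.61), and in HP1g KO 0 of 7 and 3 (median 1.77). Of all genes, edgeR called 0.18%, 0.00629% and 0% higher in these 3 comparisons, and DESeq2 1.42%, 0.116% and 1.09%. Against naive cells the list split. edgeR called Cxcr5, Il21 and Icos higher and Tcf7 and Pou2af1 lower in HP1a WT, HP1a KO, HP1g WT and HP1g KO Tconv, and Bcl6 lower in HP1a WT Tconv. Of all genes, 12.9%, 12.4%, 15% and 15.7% were called higher and 10.2%, 7.24%, 8.55% and 7.3% lower. Il21, the cytokine of follicular helper cells, was 309.7, 249 and 104 CPM in HP1a WT with Treg against 5.38, 3.64 and 1.71 without, a rise of 5.98 ± 0.59 (SE) on the log2 scale (edgeR adjusted p 0.00212). Bcl6, the repressor that defines these cells, was 44.9, 53.4 and 18.4 CPM against 8.79, 6.80 and 4.51 (2.57 ± 0.43, edgeR adjusted p 0.0143). Between genotypes with Treg, edgeR called 0 of the 7 in either line. DESeq2 called 3 lower in HP1a KO and 5 higher in HP1g KO, beside 1.96% and 2.57% of all genes. The difference of knock-out effects between the lines was called by edgeR for Bcl6, Il21 and Ascl2, with HP1g minus HP1a above 0, beside 1.78% of all genes. The summed follicular helper markers were 181 to 598 CPM in HP1a WT with Treg, 66.0 to 236 in HP1a KO, 35.3 to 88.1 in HP1g WT and 277 to 573 in HP1g KO, against 19.98 to 150.2 CPM in the recovered cells without Treg. The groups with the 2 highest Tox means also held the highest single sums, although the ranges overlapped with HP1a KO with Treg for HP1a WT, and the part of follicular helper cells in the Tox levels was not tested.

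Of the 9 genes of the calcineurin, NFAT and NR4A list, Nr4a2, a nuclear receptor induced by antigen receptor signals, was the 1 called with Treg in HP1a WT (3.46 ± 0.63, SE, edgeR adjusted p 0.0184) and in HP1a KO (1.97 ± 0.23, edgeR adjusted p 0.0250). Of all genes, 3.54% and 0.18% were called higher there. The list medians of 0.11 in both lay near those of all genes, and the 3 NFAT genes were not called by edgeR (DESeq2 called Nfatc1 in HP1a WT). Against naive cells, 3 of the 9 were called higher in HP1g WT Tconv (Nfatc2, Nfatc3 and Nr4a2), 1 in HP1g KO Tconv (Nr4a2) and 0 in both HP1a genotypes. Of all genes, 15% were called higher in HP1g WT, 15.7% in HP1g KO, 12.9% in HP1a WT and 12.4% in HP1a KO. Among the 5 CD4 lineage factors, Myb rose by 3.39 ± 0.33 and Gata3, which directs Th2 cells, fell by 1.62 ± 0.26 with Treg in HP1a WT (edgeR adjusted p 0.00206 and 0.0117). There, 3.54% of all genes were called higher and 2.43% lower. Against naive cells, edgeR called Myb lower in HP1a WT, HP1a KO, HP1g WT and HP1g KO Tconv (log2 fold changes -2.28, -2.85, -2.34 and -1.78). Gata3 was called higher in HP1a WT, HP1a KO and HP1g WT Tconv (2.26, 2.27 and 1.87), as was Runx3. Of all genes, 10.2%, 7.24%, 8.55% and 7.3% were called lower in these 4 combinations. The 8 genes of the HBO1 complex gave 1 call, Jade3 (-1.37 ± 0.33, edgeR adjusted p 0.00901), lower in HP1a WT Tconv than in naive cells, where 10.2% of all genes were called lower, and 0 edgeR calls in the other 19 comparisons. The 5 partners of TOX4 in the phosphatase complex gave 0 calls in all 20 comparisons by edgeR and by DESeq2.

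The genes most like each member were ranked by Pearson correlation of log2(mean CPM + 1) over the 12 group means, among 9356 genes whose mean reached 5 CPM. For Tox the first 5 were Dennd2d, Arid5b, Cep43, Bcl6 and Cd247, with r from 0.967 to 0.954, and 0.299% of all genes exceeded 0.9. For Tox2 they were Synpo, Ptger2, Prelid2, Eea1 and Cntln (0.993 to 0.985), and 5.75% of genes exceeded 0.9. For Tox4 they were Ccdc186, Spata2, Usp38, Snx18 and Golph3 (0.977 to 0.946), with 0.363% above 0.9. Over the 8 recovered groups alone, 0 of the 5 genes remained among the first 5 for Tox, 1 for Tox2 (Synpo) and 1 for Tox4 (Spata2). These correlations are over groups that share lines and are given as a description.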

How the data were processed

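RNA-seq libraries (SMART-Seq amplification) of CD4+ T cells were analysed. The authors trimmed the reads, aligned them with STAR to GRCm39 and quantified them with Salmon, and deposited estimated counts per gene, neither scaled nor filtered, of which 82.9% were whole numbers (within 1e-06). Columns were matched to samples by name and samples to groups by title. One library was left out for read quality, as in the study, and restored as an alternative. Estimated counts were rounded and tested with edgeR 4.0.16 (R 4.3.3; TMM, filterByExpr, robust quasi-likelihood) on the libraries of each comparison, with Benjamini-Hochberg adjustment over all genes tested; DESeq2 1.42.0, the tool of the study, was an alternative. Levels are CPM scaled over 35 libraries. The members, the 6 gene lists, the marker lists and the tests were chosen with earlier results of these data known, and 2 of the 20 comparisons were added after values were seen. Named are the members, called list genes with Pdcd1, Lag3 and Havcr2, Cbx5 and Cbx3 as label check, and the 5 genes most like each member. Il21, Bcl6, Mettl3 and Gm11802 are also given by library or range. Replicate numbers were taken to pair libraries where every correlation of their deviations was above 0.1 over at least 3 pairs, which held in 2 comparisons, of genotypes among naive HP1a libraries (0.495 to 0.828) and of Treg in HP1g WT (0.154 to 0.458). The floor of 3 counts covers counting error only. The code was tested on simulated data. Positions come from GENCODE (GRCm39) and promoters from RefSeq (GRCm38.p6). The alternatives were DESeq2, RLE size factors, no filter on low counts, no fold threshold, all libraries of the line in 1 fit, the replicate block, the left-out library included and each library left out in turn. Of the erythroid list 3 markers are used, and the rest is not reported here.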

Additional observations from a re-analysis of the deposited data

Results flagged for a closer look

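Tox was singled out because its effects differed between the lines. The knock-out effect in Tconv with Treg differed by 4.37 on the log2 scale (HP1g minus HP1a, edgeR adjusted p 0.0107), with all 3 HP1a KO libraries below and both HP1g KO libraries above their wild-type counterparts. The Treg effect in wild-type cells differed by -3.002 (edgeR adjusted p 0.0173). Line, any batch that follows it and Treg dose cannot be told apart in either.

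The library left out of HP1g KO Tconv with Treg was set beside the 3 HP1g WT libraries with Treg, with all 36 libraries scaled together. It had 198 CPM of Tox, 1069 CPM of Tox2 and 478 CPM of Tox4, each above all 3 wild-type libraries (44.4 to 112, 18.1 to 58.1 and 182 to 202 CPM). Its total was 36961900 counts and the median Pearson r of its log2 CPM with its replicates was 0.631.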

How the results depend on the processing

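The calls of Tox and Tox2 in Tconv against naive cells and for Treg in HP1a WT kept direction and threshold under all 6 alternatives and with each library left out. The alternative without a fold threshold could not lose a call. Elsewhere the number of members called moved with the test. For KO against WT in HP1a Tconv with Treg it was 0, and 1 with DESeq2, without the filter or with all libraries in 1 fit (0 to 1 with a library left out). In HP1g Tconv it was 0, and 2 with DESeq2. In HP1g Tconv with Treg it was 0, and 2 with DESeq2 or all libraries in 1 fit and 1 with the replicate block. For Treg in HP1a KO it was 1, and 2 with DESeq2 or all libraries in 1 fit and 0 without the filter (0 to 1 with a library left out). For Treg in HP1g KO it was 0, and 2 with DESeq2 and 1 without the filter or with all libraries in 1 fit. For genotype by Treg in HP1a it was 0, and 1 with DESeq2 or all libraries in 1 fit. For the knock-out effect between lines it was 1, and 2 with DESeq2 or all libraries in 1 fit and 0 with the left-out library (1 to 2 with a library left out). For the Treg effect in WT between lines it was 1, and 2 with DESeq2 and 0 without the filter (0 to 1 with a library left out). For the HP1g genotypes in their response to transfer it was 0, and 1 with DESeq2 or without the filter. The causes were not tested.

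Log2 differences near 0 changed sign. For Tox4 in HP1g KO Tconv against naive (0.0035) the values were -0.011 with DESeq2, -0.0057 with RLE, -0.0020 without the filter and -0.011 with all libraries in 1 fit, and for Tox4 in the knock-out effect between lines (-0.0044) it was 0.68 with the left-out library. With a library left out, the ranges that crossed 0 were, for Tox, -0.033 to 0.041 (KO against WT, HP1a naive), -0.10 to 0.37 (HP1a Tconv), -0.18 to 0.34 (Tconv against naive, HP1g KO) and -0.12 to 0.35 (genotypes in transfer, HP1a), and for Tox2 -0.34 to 1.05 (KO against WT, HP1g naive). For Tox4 they were -0.21 to 0.21 (KO against WT, HP1a with Treg), -0.0084 to 0.057 (HP1g with Treg), -0.34 to 0.10 and -0.12 to 0.021 (Treg in HP1a WT and KO), -0.11 to 0.039 (Tconv against naive, HP1g KO), -0.15 to 0.27 (genotype by Treg, HP1a), -0.21 to 0.23 and -0.16 to 0.28 (knock-out and Treg effects between lines). Where replicate numbers paired the libraries (naive HP1a genotypes and Treg in HP1g WT), the replicate block changed no member call, with Tox at 0.98 for Treg in HP1g WT. Elsewhere the pairing rule was not met. The genotypes of HP1g Tconv with Treg had only 2 pairs left, with correlations of 0.222 and 0.454, and the block called Tox there (2.26). For Treg in WT between lines the block called Tox2 (-2.18) in place of Tox (-3.09, edgeR adjusted p 0.0520).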
